A study of Mus musculus with 18 samples.

Results

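Heat shock chaperones are described here over the 6 conditions of an RNA-Seq experiment in ED1SQ4 cells, a murine lung cancer line derived from a lung tumor of transgenic mice that overexpress cyclin E. The members are a list of gene symbols, chosen with earlier results of these data known. They were matched to the count table by symbol, without use of its values, and are 10 of its 55450 genes: the transcription factor gene *Hsf1* and the chaperone genes *Hspa1a*, *Hspa1b*, *Hspa8*, *Hsph1*, *Dnajb1*, *Hsp90aa1*, *Hsp90ab1*, *Hspb1* and *Hspe1*. All 10 were found once in the table, and all 10 were tested in every comparison. The cells were treated with vehicle or with 0.5 µM CYC065, an inhibitor of CDK2 and CDK9, for 72 hours. One set of conditions was unsorted, and the other cells were stained with a DNA dye and sorted by DNA content into 2N (diploid) and 4N (polyploid) populations. The 6 conditions were thus vehicle unsorted, CYC065 unsorted, vehicle 2N, vehicle 4N, CYC065 2N and CYC065 4N. All of them come from a single cell line, and a sort on DNA content does not separate cycling cells in G2 or mitosis from polyploid cells.

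Heat shock proteins keep other proteins folded. The factor HSF1 is held inactive in unstressed cells, and when unfolded proteins accumulate it forms trimers that bind repeats of the triplet GAA in alternating orientation, called heat shock elements, and raise transcription of chaperone genes. The HSP70 proteins bind exposed hydrophobic stretches in cycles of ATP hydrolysis driven by J-domain partners such as DNAJB1 and reset by nucleotide exchange factors such as HSPH1. HSP90 proteins mature kinases and other clients, small heat shock proteins such as HSPB1 hold unfolded proteins without ATP, and HSPE1 is the lid of the mitochondrial chaperonin.

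Sequences before the start sites of 6 of the 10 members were matched in RefSeq (GRCm38.p6), namely *Hspa1a*, *Hspa1b*, *Hsph1*, *Dnajb1*, *Hspb1* and *Hspe1*, with 8 entries in all. *Hspa8*, *Hsf1*, *Hsp90aa1* and *Hsp90ab1* were not matched. *Hspa1a* and *Hspa1b* are shown first because their near identity bears on every value given for them. Over the 300 bases from 250 before to 50 after the start, they were identical at 296 bases (98.7%). The stretches below, on the minus strand, lie at chr17:34972157-34972378 for *Hspa1a* and chr17:34959239-34959460 for *Hspa1b*, and capitals mark the 3 bases at which these stretches differ.
Hspa1a: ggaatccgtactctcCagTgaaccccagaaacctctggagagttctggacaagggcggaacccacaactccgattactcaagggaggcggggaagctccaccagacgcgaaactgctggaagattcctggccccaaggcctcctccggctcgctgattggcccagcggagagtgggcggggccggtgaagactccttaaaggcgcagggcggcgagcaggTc
Hspa1b: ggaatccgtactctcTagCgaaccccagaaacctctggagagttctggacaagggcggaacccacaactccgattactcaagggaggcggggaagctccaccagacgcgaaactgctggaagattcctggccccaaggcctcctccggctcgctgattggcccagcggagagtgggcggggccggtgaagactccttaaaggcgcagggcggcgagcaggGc

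Heat shock element letters were searched on both strands as GAANNTTCNNGAA or TTCNNGAANNTTC (3 alternating triplets), and as GAANNTTC or TTCNNGAA (2 alternating triplets, which the longer form contains). The longer form was found in 198 of 32851 promoters of this length (0.603%), and in those of *Hsph1* and *Hspe1*. The shorter form was found in 15.1% of these promoters, and in 5 of the 6 members, all but *Dnajb1*. The next lines show these stretches, with matched triplets in capitals, to set members whose levels went opposite ways beside each other. The first is the same in *Hspa1a* (chr17:34972238-34972275, minus strand) and *Hspa1b* (chr17:34959320-34959357, minus strand). The others are from *Hspb1* (chr5:135887787-135887844, plus strand), *Hspe1* (chr1:55088044-55088091, plus strand) and *Hsph1* (chr5:149636280-149636308, minus strand). The matched letters span positions 104 to 97 before the start in *Hspa1a* and *Hspa1b*, 117 to 90 before it in *Hspb1* and 89 to 72 before it in *Hspe1*. The longer match of *Hsph1* spans positions 16 to 28 after one of its start sites, and another shorter match of this gene, before the start, is not shown. A match is a description of letters and not a bound site.
Hspa1a and Hspa1b: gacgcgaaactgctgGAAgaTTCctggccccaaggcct
Hspb1: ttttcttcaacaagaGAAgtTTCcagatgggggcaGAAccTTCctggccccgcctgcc
Hspe1: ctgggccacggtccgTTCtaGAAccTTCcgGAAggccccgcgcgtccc
Hsph1: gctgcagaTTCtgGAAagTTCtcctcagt

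The deposited values were expected counts in 18 columns, 3 for each condition, which the sample titles number as replicates 1 to 3 and the library names as parts of a single library. Whether separate cultures stand behind them is not stated in the sources used here. Over genes with whole counts, a chi-square statistic divided by its degrees of freedom was 0.991 to 1.02 for the 3 columns of a condition. These counts thus varied within sampling noise, and the columns were summed to 1 library per condition, of 54750203 to 62795507 counts. Over genes with fractional counts, to which 7 of the 10 members belong (all but *Hsf1*, *Hsph1* and *Dnajb1*), the statistic was 4.35 to 7.60, so counting intervals are too narrow for such genes. No difference between conditions therefore has a replicate check across cultures, and no P value is given. A level is in CPM, the count of a gene per 1000000 counts of the scaled library. A difference is on the log2 scale, with the 95% interval that counting error alone allows in brackets. A gene was taken as past the fold when its difference went beyond 1 in either direction, that is, beyond a 2-fold change. In bulk RNA, fewer cells that express a gene and less RNA per cell cannot be told apart. The summed level of 6 epithelial markers was 0.593 to 1.5 CPM and that of 5 alveolar type 2 markers was 0 to 0.0855 CPM, with *Nkx2-1* and *Sftpa1* at 0 counts in all 6 libraries. The 4 mesenchymal markers summed to 9391 to 14424 CPM, so the line carried mesenchymal rather than epithelial transcripts. The 4 fibroblast markers summed to 8815, 6792 and 5934 CPM in vehicle unsorted, 2N and 4N cells and to 14911, 11190 and 9027 CPM with CYC065, higher with treatment in each population, and the 3 endothelial markers to 0.523 to 1.88 CPM. *Cd68*, a macrophage marker, was at 4.06, 3.45 and 3.63 CPM with vehicle and 10.9, 23.8 and 18.9 CPM with CYC065 in the same order, while the pan-leukocyte gene *Ptprc* had 0 or 1 count in each library. The part of these genes in the members' values was not tested.

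With CYC065, members of the group lay on both sides of vehicle. In 2N and 4N cells, the inducible HSP70 genes *Hspa1a* and *Hspa1b* were 4.53-fold to 7.90-fold higher with CYC065 than with vehicle, while *Hsp90aa1*, *Hsp90ab1*, *Hspa8* and *Hspe1* were 1.73-fold to 2.47-fold lower. Of the 10 members, 2 were past the fold higher and 2 lower in 2N cells, where 14.9% of 14083 genes were past the fold higher and 13.3% lower. In 4N cells, 2 were past it higher and 3 lower, against 14.2% and 11.4% of 14177 genes. In unsorted cells, 0 were past it higher and 2 lower, against 11.7% and 14.0% of 14076 genes. With 10 members, counts of 2 or 3 are near these shares, and no result about the group is read from them. The median difference of the members was -0.32 in 2N, -0.38 in 4N and -0.69 in unsorted cells, as compared with -0.07, -0.03 and -0.07 over all genes tested. The plot of levels by library shows each gene.

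**Figure D1:**
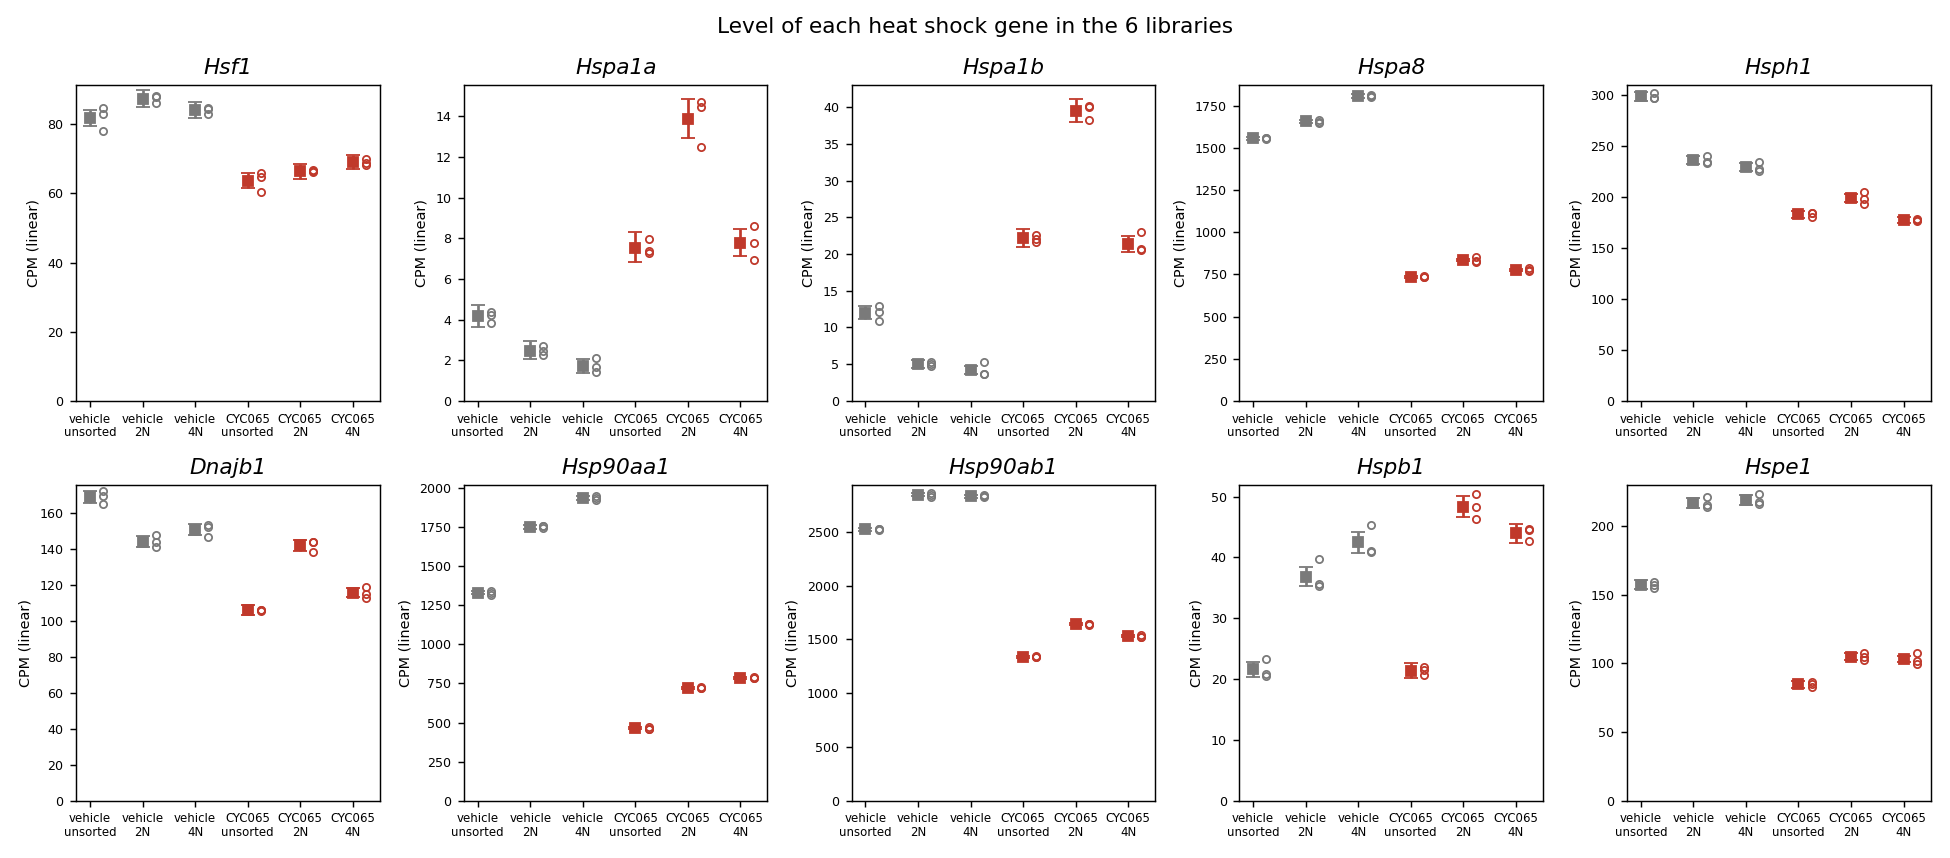
Level of each member in CPM (linear axes from 0) in the 3 vehicle libraries (gray) and the 3 CYC065 libraries (red). Squares are library levels with 95% counting intervals, and open circles are the 3 columns that make up a library. *Hspa1a* and *Hspa1b* were highest in CYC065 2N cells, at 13.9 and 39.5 CPM, and *Hsp90aa1* in vehicle 4N cells, at 1937 CPM.

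*Hspa1b* (ENSMUSG00000090877.3, mm10 chr17:34956436-34959238, minus strand) encodes an HSP70 protein that most unstressed cells make at a low level. With vehicle, its level was 12 CPM in unsorted, 5.00 in 2N and 4.19 in 4N cells, and with CYC065 it was 22.1 in unsorted, 39.5 in 2N and 21.3 in 4N cells. The 3 CYC065 libraries lay above the 3 vehicle libraries, and CYC065 2N stood above the rest. The log2 difference between CYC065 and vehicle was 2.98 [2.80, 3.17] in 2N cells and 2.35 [2.15, 2.55] in 4N cells. In unsorted cells it was 0.88 [0.75, 1.02], short of the fold.

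*Hspa1a* (ENSMUSG00000091971.3, chr17:34969190-34972156, minus strand) is the neighboring copy and encodes nearly the same protein. With vehicle, it was at 4.15 CPM in unsorted, 2.48 in 2N and 1.71 in 4N cells, and with CYC065 at 7.53 in unsorted, 13.9 in 2N and 7.77 in 4N cells. This is the order of *Hspa1b* except that the 4N and unsorted CYC065 libraries, whose intervals overlapped in both genes, exchanged places. The difference between treatments was 2.48 [2.23, 2.76] in 2N, 2.18 [1.88, 2.51] in 4N and 0.86 [0.62, 1.09] in unsorted cells. Each gene shares over 60% of its 50-base words with other genes (66.3% of *Hspa1a*, 62.3% of *Hspa1b*), mostly with the other copy, so RSEM divided ambiguous reads between them. Among the single columns, each with fewer counts than their sum, the 4N difference of *Hspa1a* ran from 1.72 to 2.62. The counting interval given is for the summed columns and is not a measure for single ones. Adding the counts of the pair gave 2.84 [2.69, 2.99] in 2N, 2.30 [2.14, 2.47] in 4N and 0.88 [0.76, 0.99] in unsorted cells. The summed value in 2N cells lay above the interval of *Hspa1a* alone, which held 26.0% of the pair's counts in CYC065 2N cells. The direction was the same for each copy and for the sum. How far the size of either difference depended on the division of reads was not tested.

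**Figure D2:**
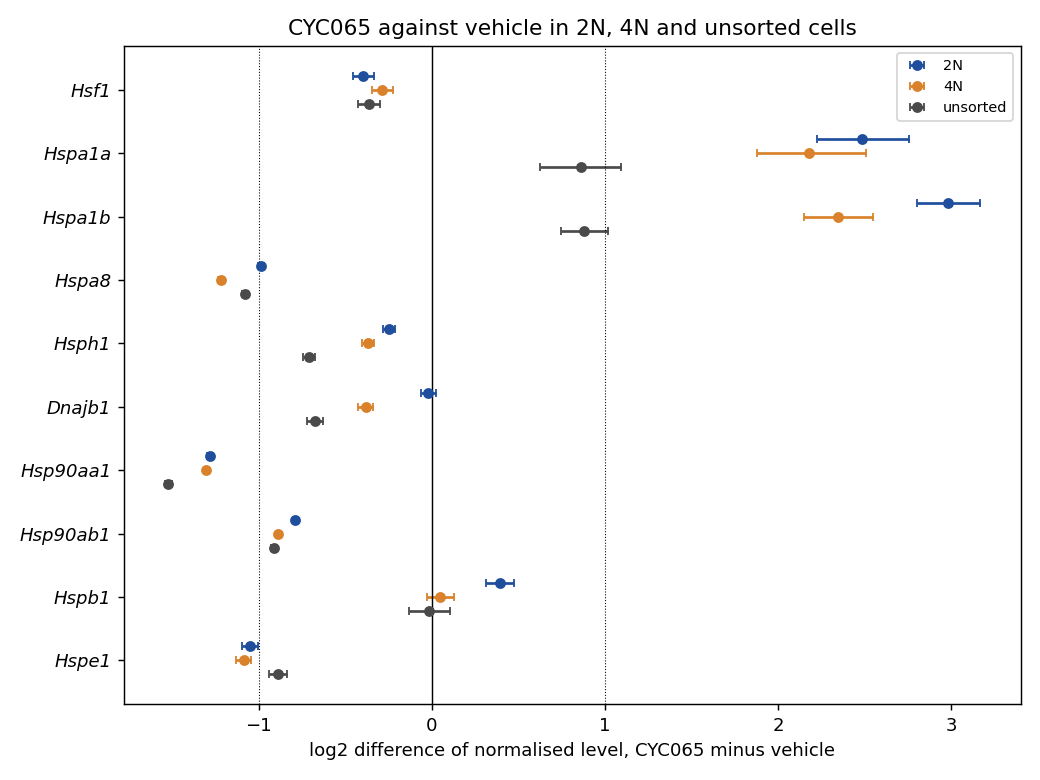
Log2 difference between CYC065 and vehicle for each member in 2N (blue), 4N (orange) and unsorted cells (dark gray), with 95% counting intervals. Dotted lines mark the fold of 1. *Hspa1a* and *Hspa1b* stand to the right in sorted cells, at 2.18 to 2.98, and *Hsp90aa1* farthest to the left, at -1.52 to -1.28.

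*Hspa8* (ENSMUSG00000015656.17, chr9:40800984-40810087, plus strand) encodes the constitutive cytosolic HSP70, which carries most of the everyday folding work and uncoats clathrin vesicles. It went the other way from the inducible pair, with 1557 CPM in unsorted, 1657 in 2N and 1808 in 4N cells under vehicle against 736, 836 and 777 CPM under CYC065. The vehicle and CYC065 levels did not overlap. The difference was -0.99 [-1.0, -0.97] in 2N cells, just short of the fold, -1.22 [-1.23, -1.20] in 4N and -1.08 [-1.10, -1.06] in unsorted cells. Of its 50-base words, 39.4% occur in other genes, mainly processed copies such as *Gm15459*.

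The share of the inducible pair among cytosolic HSP70 transcripts was computed per kilobase of exons, to allow for gene length. The length was the union of all annotated exons of a gene, 2967, 2803 and 4301 bases for *Hspa1a*, *Hspa1b* and *Hspa8*. This union can exceed the length of the transcripts present, so shares and orders per kilobase depend on that choice. *Hspa1a* and *Hspa1b* made up 1.55% of the summed level of *Hspa1a*, *Hspa1b* and *Hspa8* in unsorted, 0.675% in 2N and 0.491% in 4N cells with vehicle. With CYC065 the share was 5.74% in unsorted, 8.80% in 2N and 5.36% in 4N cells. *Hspa8* was thus the most abundant of these 3 genes in each library. The 10 members together took 0.599% of all counts in unsorted, 0.678% in 2N and 0.714% in 4N cells with vehicle, against 0.285%, 0.407% and 0.391% with CYC065. *Hsp90aa1*, *Hsp90ab1* and *Hspa8* held 83.9% to 90.0% of the members' counts, so the total followed these genes and not the inducible pair.

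**Figure D3:**
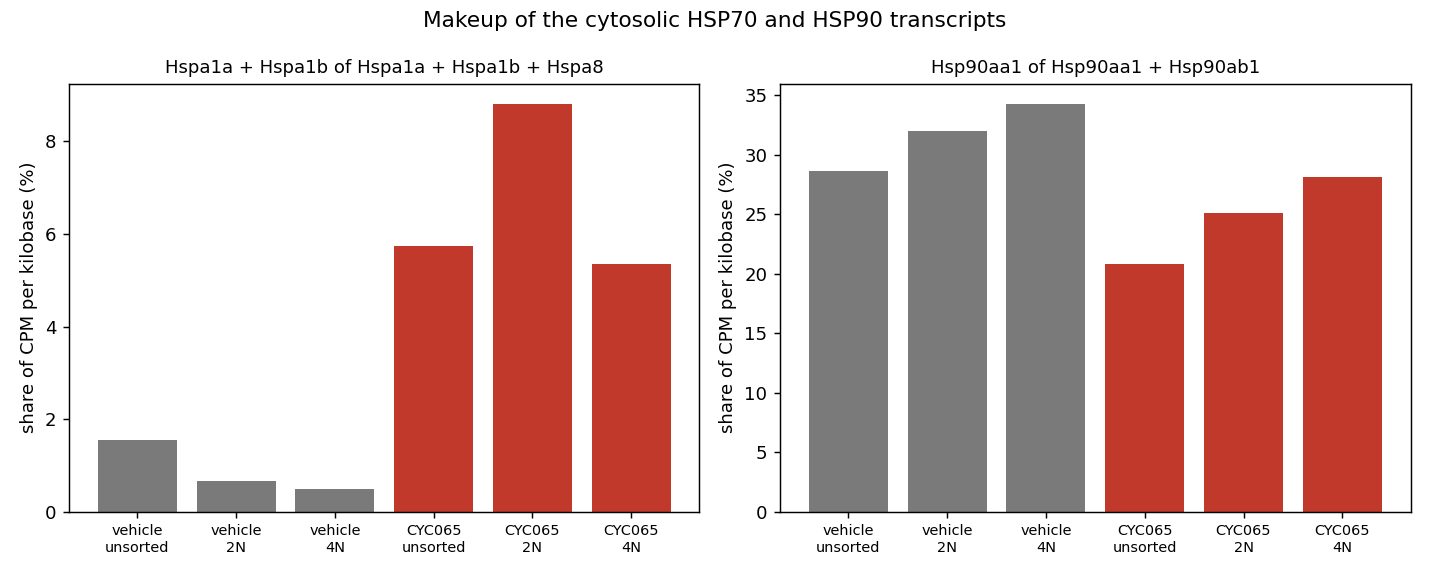
Left, share of *Hspa1a* and *Hspa1b* in the summed level of *Hspa1a*, *Hspa1b* and *Hspa8*. Right, share of *Hsp90aa1* in the summed level of *Hsp90aa1* and *Hsp90ab1*. Both are in percent of CPM per kilobase, from 0, with vehicle libraries in gray and CYC065 libraries in red. The left share was 0.491% to 1.55% with vehicle and 5.36% to 8.80% with CYC065.

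*Hsp90ab1* (ENSMUSG00000023944.14, chr17:45567775-45573271, minus strand), the constitutive cytosolic form, was the highest member per kilobase in all 6 libraries. It was at 2523, 2844 and 2833 CPM in vehicle unsorted, 2N and 4N cells, and at 1339, 1643 and 1529 CPM in the CYC065 counterparts. The difference was -0.79 [-0.80, -0.78] in 2N, -0.89 [-0.90, -0.88] in 4N and -0.91 [-0.93, -0.90] in unsorted cells, short of the fold in each. *Hsp90aa1* (ENSMUSG00000021270.13, chr12:110690605-110702728, minus strand), the stress-inducible cytosolic form, showed the larger difference. With vehicle, its level was 1329 CPM in unsorted, 1752 in 2N and 1937 in 4N cells, and with CYC065 it was 463, 721 and 785 CPM. The vehicle libraries all lay above the CYC065 libraries. *Hsp90aa1* was past the fold in all 3 comparisons, at -1.28 [-1.30, -1.26] in 2N, -1.30 [-1.32, -1.29] in 4N and -1.52 [-1.54, -1.5] in unsorted cells. Its share of the HSP90 pair per kilobase was 28.7%, 32.0% and 34.3% in vehicle unsorted, 2N and 4N cells and 20.9%, 25.1% and 28.2% with CYC065. Among its 50-base words, 47.5% occur elsewhere, chiefly in the copy *Gm12346*, as compared with 3.44% for *Hsp90ab1*.

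*Hspe1* (ENSMUSG00000073676.4, chr1:55088132-55091307, plus strand), which encodes the lid of the mitochondrial chaperonin, followed the HSP90 genes. It was at 157, 217 and 219 CPM in vehicle unsorted, 2N and 4N cells and at 84.7, 105 and 103 CPM with CYC065. The difference was -1.05 [-1.09, -1.01] in 2N, -1.09 [-1.13, -1.04] in 4N and -0.89 [-0.94, -0.84] in unsorted cells. It sits at the fold, and scaling by library size alone put it at -0.91 in 2N and -0.94 in 4N cells, while moving the median of all genes by 0.14 in both.

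The HSP70 partners differed less. *Hsph1* (ENSMUSG00000029657.15, chr5:149614287-149636376, minus strand), an exchange factor of the HSP110 family, was at 299, 236 and 229 CPM in vehicle unsorted, 2N and 4N cells and at 183, 199 and 177 CPM with CYC065. Its difference was -0.25 [-0.28, -0.21] in 2N, -0.37 [-0.41, -0.33] in 4N and -0.71 [-0.74, -0.67] in unsorted cells. *Dnajb1* (ENSMUSG00000005483.10, chr8:83608193-83612653, plus strand), the J-domain partner of the inducible HSP70, was at 169, 144 and 150 CPM with vehicle and at 106, 142 and 115 CPM with CYC065, in the same order of populations. In 2N cells the intervals of the treatments overlapped, and the difference was -0.02 [-0.07, 0.02], with a positive sign under library size scaling and DESeq2 size factors. It was -0.38 [-0.43, -0.34] in 4N and -0.67 [-0.72, -0.63] in unsorted cells. *Dnajb1* was thus lower with CYC065 in 4N and unsorted cells, where *Hspa1a* and *Hspa1b* were higher. In 2N cells its difference was near 0 and its direction depended on the setting.

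*Hspb1* (ENSMUSG00000004951.10, chr5:135887919-135889563, plus strand), a small heat shock protein that also binds actin, followed the sort more than the drug. It was at 21.6 CPM in vehicle unsorted and 21.4 in CYC065 unsorted cells, as compared with 36.8 CPM (vehicle) and 48.4 CPM (CYC065) in 2N cells and 42.5 and 43.9 CPM in 4N cells. All 4 sorted libraries lay above both unsorted ones. The difference between treatments was 0.39 [0.31, 0.47] in 2N cells, while the intervals in 4N (0.05 [-0.03, 0.13]) and unsorted cells (-0.01 [-0.13, 0.10]) included 0. A copy, *Hsp25-ps1*, shares 48.8% of its 50-base words.

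*Hsf1* itself (ENSMUSG00000022556.11, chr15:76477422-76501913, plus strand) differed little, with a 1.37-fold range over the 6 libraries, the narrowest of the members. It was at 81.9, 87.4 and 84.1 CPM in vehicle unsorted, 2N and 4N cells and at 63.7, 66.4 and 69.0 CPM with CYC065. The difference was -0.40 [-0.46, -0.34] in 2N, -0.29 [-0.34, -0.23] in 4N and -0.36 [-0.43, -0.30] in unsorted cells. Transcript levels of *Hsf1* do not measure the activity of its protein.

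Per kilobase, neighbors in the order of the members changed places between libraries. In vehicle 2N cells it ran from *Hsp90ab1* (948) over *Hsp90aa1* (446), *Hspa8* (385), *Hspe1* (147), *Dnajb1* (44.9), *Hspb1* (35.7), *Hsph1* (32.4) and *Hsf1* (12.3) to *Hspa1b* (1.78) and *Hspa1a* (0.835 CPM per kilobase). In CYC065 2N cells *Hspa8* (194) stood above *Hsp90aa1* (184), and *Hspb1* (46.9) above *Dnajb1* (44.3). *Hspa1b*, at 14.1 CPM per kilobase, there exceeded *Hsf1*, at 9.35, which it did in none of the other libraries. *Hspa1a* was the lowest member in all 6. The order of genes with close values depends on the exon length used.

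The comparison of 4N with 2N cells asked whether chaperone levels followed ploidy. With vehicle, 0 members were past the fold in either direction, against 1.02% of 13358 genes higher and 1.68% lower. With CYC065 it was again 0 members, against 1.59% of 14173 genes higher and 2.03% lower. Below the fold, the inducible pair was lower in 4N cells with CYC065 and less clearly with vehicle. The vehicle difference of *Hspa1b* was -0.25 [-0.51, 0.00] and ran from -0.53 to 0.06 among the columns. That of *Hspa1a* was -0.53 [-0.92, -0.16] and that of the summed pair -0.34 [-0.55, -0.13], with 100.5 expected counts of *Hspa1a* in vehicle 4N cells, the lowest of any member. With CYC065 it was -0.84 [-1.0, -0.68] for *Hspa1a* and -0.89 [-0.98, -0.79] for *Hspa1b*. The other 8 members lay between -0.06 and 0.20 with vehicle and between -0.30 and 0.12 with CYC065. *Hsp90aa1* was slightly higher in 4N cells under both treatments, at 0.14 [0.13, 0.16] and 0.12 [0.10, 0.14].

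**Figure D4:**
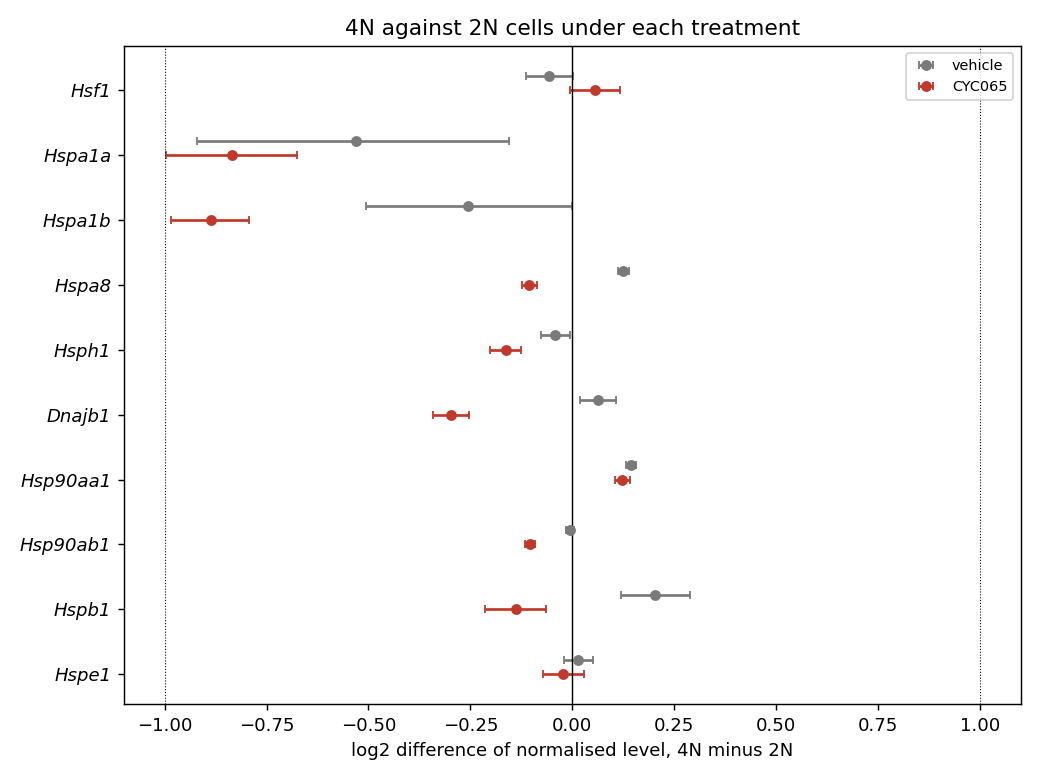
Log2 difference between 4N and 2N cells for each member with vehicle (gray) and CYC065 (red), with 95% counting intervals. Dotted lines mark the fold of 1. *Hspa1a* and *Hspa1b* lie farthest to the left with CYC065, at -0.84 and -0.89, and no member passes the fold.

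The 4N/2N ratio was also compared between treatments, as the CYC065 difference minus the vehicle difference. Again 0 members were past the fold, against 3.68% of 14474 genes higher and 3.61% lower. *Hspa1b* was at -0.63 [-0.90, -0.37], *Dnajb1* at -0.36 [-0.42, -0.30], *Hspb1* at -0.34 [-0.45, -0.23] and *Hspa8* at -0.23 [-0.25, -0.21]. The interval of *Hspa1a*, -0.30 [-0.71, 0.10], included 0. The highest was *Hsf1*, at 0.11 [0.03, 0.20].

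Sorted and unsorted cells differed in the inducible pair, and in opposite directions under the 2 treatments. With vehicle, 2N cells were lower than unsorted cells, at a difference of -1.26 [-1.47, -1.06] for *Hspa1b* and -0.74 [-1.06, -0.44] for *Hspa1a*. With CYC065 they were higher, at 0.84 [0.74, 0.94] and 0.88 [0.71, 1.06]. In 4N cells the vehicle difference was -1.52 [-1.73, -1.3] for *Hspa1b* and -1.27 [-1.64, -0.94] for *Hspa1a*, and with CYC065 the intervals included 0. The larger treatment difference in sorted cells came from both sides in 2N cells and from the vehicle side in 4N cells. Against unsorted cells, the treatment difference of *Hspa1b* was 2.10 [1.88, 2.32] larger in 2N and 1.47 [1.23, 1.71] larger in 4N cells. *Hspb1* was higher after sorting under both treatments, by 0.77 [0.67, 0.87] with vehicle and 1.2 [1.1, 1.3] with CYC065 in 2N cells. *Hsp90aa1* was higher as well, by 0.40 [0.38, 0.41] and 0.64 [0.62, 0.66].

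**Figure D5:**
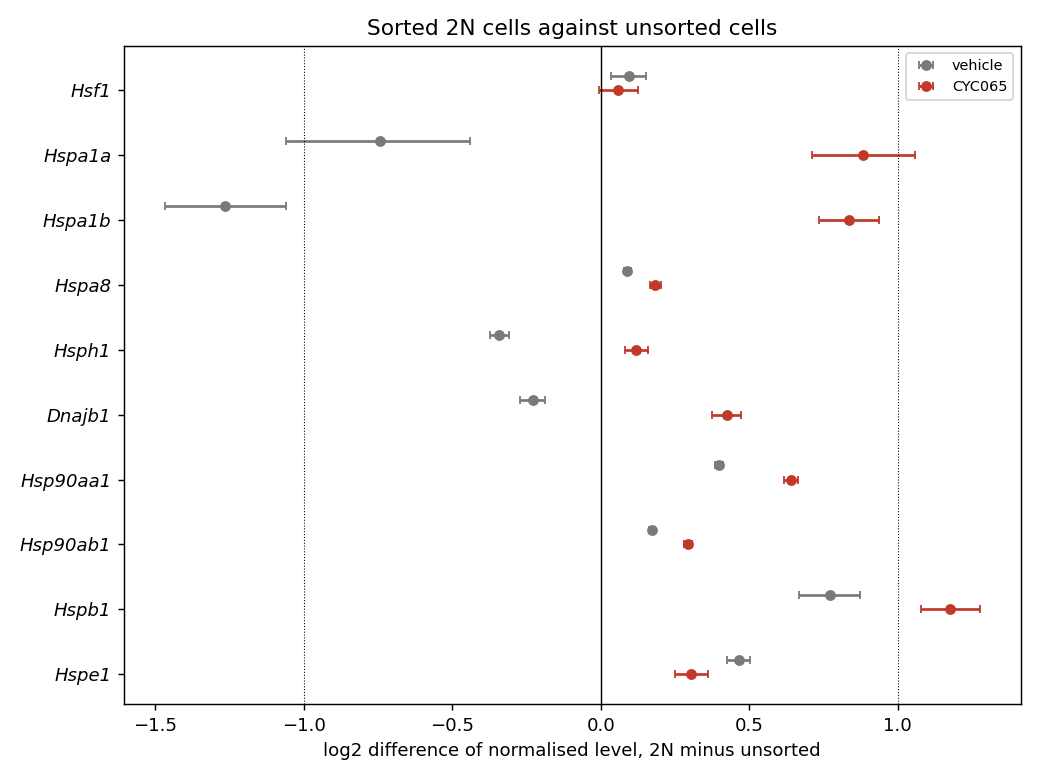
Log2 difference between sorted 2N and unsorted cells for each member with vehicle (gray) and CYC065 (red), with 95% counting intervals. Dotted lines mark the fold of 1. *Hspa1a* and *Hspa1b* lie to the left with vehicle, at -0.74 and -1.26, and to the right with CYC065, at 0.88 and 0.84, while *Hspb1* lies to the right with both.

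Unsorted cells are not described as having gone through the dye and the sorter, so handling and population cannot be told apart in these values. Genes that respond within minutes to handling were therefore set beside them, from a list of 17 immediate early and dissociation genes. Of these, 12 were past the fold higher with CYC065 in 2N, 9 in 4N and 8 in unsorted cells, where 14.9%, 14.2% and 11.7% of all genes were, and 0 were lower. Their summed level was 1022, 1092 and 892 CPM in vehicle unsorted, 2N and 4N cells and 1755, 2151 and 1443 CPM with CYC065. *Fos*, an AP-1 subunit, was higher in 2N than in unsorted cells by 3.12 [2.85, 3.40] with vehicle and by 1.75 [1.67, 1.82] with CYC065. In the same comparison, 12 of the 17 were above 0 with vehicle and 14 with CYC065. In 4N as compared with unsorted cells, 8 of the 17 were above 0 and 9 below under both treatments. *Ier3*, *Zfp36*, *Klf4* and *Ier2*, named after their values were seen, were lower in 2N than in unsorted cells with vehicle and higher with CYC065. This is the direction of *Hspa1b*, but not its size in each. *Ier2* moved little, from 102 CPM in unsorted to 97.6 in 2N cells with vehicle and from 169 to 174 CPM with CYC065. *Klf4* went from 107 to 115 CPM with CYC065. Most of the list did not share this pattern, and *Socs3* was lower in 2N cells under both treatments. *Ier3* was at 76.7 CPM in unsorted and 50.4 CPM in 2N cells with vehicle and at 132 and 165 CPM with CYC065. *Atf3*, a stress-response factor, was at 21.2 CPM in CYC065 2N against 4.87 CPM in CYC065 unsorted cells. With CYC065, 4N cells were lower than 2N cells in *Egr1* (-1.16 [-1.19, -1.12]), *Nr4a1* (-1.08 [-1.15, -1.02]) and *Fos* (-1.04 [-1.10, -0.98]), the direction also seen in *Hspa1b*. The part of handling in the values of *Hspa1a* and *Hspa1b* was not tested.

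Beyond the members, 76 other genes of the chaperone network were listed, of which 64 were tested. With CYC065, 5 were past the fold higher and 11 lower in 2N, 2 higher and 8 lower in 4N, and 1 higher and 9 lower in unsorted cells. Over all genes, 14.9%, 14.2% and 11.7% were past it higher and 13.3%, 11.4% and 14.0% lower. The lower counts of the network were near these shares, and no result is read from them. The median of the network was -0.28, -0.24 and -0.33. None was past the fold between 4N and 2N cells under either treatment. Of all genes, 1.02% were past it higher and 1.68% lower with vehicle, and 1.59% and 2.03% with CYC065.

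Chaperonins, the barrel-shaped folding machines, lay lowest. All 9 tested were below 0 in each of the 3 treatment comparisons, with 5 past the fold in 2N and 4 each in 4N and unsorted cells, where 13.3%, 11.4% and 14.0% of all genes were past it lower. The subunit *Cct6a* was at -1.53 [-1.56, -1.5] in 2N, -1.38 [-1.41, -1.36] in 4N and -1.49 [-1.53, -1.45] in unsorted cells. *Cct8* was at -1.16, -1.33 and -1.06. The mitochondrial barrel *Hspd1*, the partner of *Hspe1*, was at 1059 CPM with vehicle and 482 CPM with CYC065 in 2N cells, a difference of -1.13 [-1.15, -1.11]. Its unsorted difference was -1.19 [-1.22, -1.17], and 42.1% of its 50-base words occur in other genes. *Tcp1* was at -1.10 [-1.12, -1.07] in 4N cells.

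Of 14 organelle HSP90 genes and HSP90 co-chaperones, 3 were past the fold lower in 2N, 2 in 4N and 4 in unsorted cells, and 0 higher. The shares of all genes were again 13.3%, 11.4% and 14.0%. With 14 genes, the counts are too small to tell from these shares, and no result is read from them. The immunophilin *Ppid* was at -1.45 [-1.5, -1.41] in 2N and -1.38 [-1.42, -1.34] in 4N cells. *Fkbp4*, another immunophilin, was at -1.19 in both and at -1.34 [-1.39, -1.29] in unsorted cells. *Stip1*, the adaptor between HSP70 and HSP90, was at -1.08 [-1.11, -1.04] in 2N cells. In unsorted cells *Ptges3*, the p23 co-chaperone, was at -1.19 [-1.23, -1.15] and *Ahsa1*, the activator of the HSP90 ATPase, at -1.16 [-1.22, -1.10].

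On the HSP70 side of the network, genes lay on both sides of vehicle. Of 10 other HSP70 family genes tested, 1 was past the fold higher and 1 lower in each sorted population and 0 in unsorted cells. Over all genes, 14.9%, 14.2% and 11.7% were past it higher in 2N, 4N and unsorted cells and 13.3%, 11.4% and 14.0% lower. *Hspa2*, a family member best known from the testis, was at 1.54 [1.40, 1.68] in 2N and 1.14 [1.00, 1.29] in 4N cells. *Hspa4*, of the HSP110 family like *Hsph1*, was at -1.05 [-1.08, -1.02] and -1.02 [-1.04, -0.99]. Among 12 J-domain genes, 2 were past the fold higher in 2N, 1 in 4N and 0 in unsorted cells, with 0 lower in any. In lists this short, such counts are too small to tell from these shares, and no result is read from them. *Dnajb4* was at 1.52 [1.42, 1.62] in 2N and 1.10 [1.01, 1.19] in 4N cells, and *Dnajb9*, of the endoplasmic reticulum, at 1.21 [1.11, 1.31] in 2N cells.

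Of 11 exchange factor and BAG genes, 2 were past the fold higher and 2 lower with CYC065 in 2N cells. In 4N cells 0 were higher and 1 lower, and in unsorted cells 1 and 0. Over all genes, 14.9%, 14.2% and 11.7% were higher and 13.3%, 11.4% and 14.0% lower in 2N, 4N and unsorted cells. No result is read from counts this small. *Bag3*, which couples HSP70 to autophagy, had 28.4 CPM with vehicle and 80.8 CPM with CYC065 in 2N cells, a difference of 1.51 [1.43, 1.59]. With vehicle and CYC065 it was at 33.4 and 58.9 CPM in 4N cells and at 56.4 and 65.0 CPM in unsorted cells. As with *Hspa1b*, its treatment difference in 2N cells was 1.3 [1.2, 1.4] larger than in unsorted cells. *Sil1*, the exchange factor of the endoplasmic reticulum, was at 1.10 [0.96, 1.23] in 2N and 1.20 [1.08, 1.32] in unsorted cells. *Stub1*, a ubiquitin ligase that binds HSP70, was at -1.08 [-1.14, -1.01] in 2N and -1.01 [-1.08, -0.95] in 4N cells, with 33.7% of its 50-base words shared with overlapping genes. Of 5 other small heat shock genes tested, *Hspb6* was past the fold lower in unsorted cells, at -1.33 [-1.52, -1.14], where 14.0% of all genes were. Of 3 other heat shock factor and regulator genes tested, 0 were past the fold in any of these comparisons, too few genes to set against the shares of all genes.

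The genes whose pattern over the 6 libraries was most like that of a member were taken from 6450 genes with at least 1000 counts in every library, by the root mean square distance of centered log2 levels. This is a description over 6 points that share their libraries. *Hspa1a* and *Hspa1b* did not reach 1000 counts in every library, so neither copy was searched as a neighbor of the other. Other genes of such low counts were also left out. *Pnrc1*, a nuclear receptor coregulator, was nearest to both *Hspa1b* (0.29) and *Hspa1a* (0.31), followed for both by *Hmox1*, the stress-inducible heme oxygenase, at 0.31. *Sat1* for *Hspa1a* and *Kdm7a* for *Hspa1b* came next. *Hmox1* was at 52.5, 19.8 and 20.3 CPM in vehicle unsorted, 2N and 4N cells and at 84.2, 95.6 and 80.5 CPM with CYC065. For *Hsp90aa1* the nearest were *Hat1* (0.07), *Mthfd1* and *Set*, for *Hsp90ab1* *Psmd7* (0.03), *Clic1* and *Rbm8a*, and for *Hspe1* *Emc6* (0.03), *Drg2* and *Eif4a3*. For *Hspa8* they were *Gm15459* (0.02), which shares 98.8% of its 50-base words with other genes, *Hspa8* among them, followed by *Pnn* and *Slc25a4*. *Hspb1* was nearest to *Plk2* (0.12), *Tmsb4x* and *Rmrp*. Among the genes searched, the distances of *Hspa1a* and *Hspa1b* were larger than those of the abundant members.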

How the data were processed

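RNA-Seq was performed on ED1SQ4 cells in 6 conditions, as vehicle or CYC065 unsorted, 2N and 4N cells. The authors depleted ribosomal RNA, prepared stranded libraries, sequenced paired ends, aligned trimmed reads to mm10 with STAR 2.7.0f and estimated the expected counts of GENCODE M21 genes with RSEM. The deposited expected counts were not normalized, and 9.66% of genes, 7 of the 10 members among them, had a fractional count. Such counts depend on how RSEM divided shared reads. RSEM is given as 1.3.1 in the submitters' processing notes.

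The 3 columns of a condition were summed. Same-numbered columns of different conditions had correlations of deviations from -0.221 to 0.450. The highest was that of the columns numbered 3 in unsorted cells, where those numbered 1 and 2 were at -0.216 and -0.221. The numbers thus showed no pairing common to all comparisons, and the value of the columns numbered 3 was not followed up. The summed libraries were scaled with TMM in edgeR 4.0.16. A gene was tested where 1 or more of the compared libraries held 30 counts of it, with a prior count of 0.125. Intervals are exact 95% intervals (Poisson for levels, Clopper-Pearson for ratios, normal on the log scale for differences of ratios) and cover counting error only. For the columns, edgeR's quasi-likelihood test and DESeq2 1.42.0, with Benjamini-Hochberg adjustment, were alternatives that compare libraries and not conditions. R 4.3.3 and Python 3.11.15 were used, and the fits were tested on simulated data.

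Members and gene lists were chosen with earlier results of these data known. Named genes were all members and, from each list, up to 3 genes per comparison of largest difference past the fold whose higher library held 100 counts or more. Like-pattern genes were the 3 nearest for members whose log2 level ranged over more than 1. Shared 50-base words were counted over GENCODE M21 transcripts. One marker gene is not reported here.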

Additional observations from a re-analysis of the deposited data

Results flagged for a closer look

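The direction of 6 members differed between conditions under the same contrast, with both counting intervals away from 0. With 1 library per condition, none of these differences was tested against the spread between cultures. In 2N as compared with unsorted cells, *Hspa1b* was at -1.26 with vehicle and 0.84 with CYC065, *Hspa1a* at -0.74 and 0.88, *Hsph1* at -0.34 and 0.12, and *Dnajb1* at -0.23 and 0.42. In 4N as compared with unsorted cells, *Dnajb1* was at -0.17 and 0.13. In 4N as compared with 2N cells, *Hspb1* was at 0.20 with vehicle and -0.14 with CYC065, *Dnajb1* at 0.064 and -0.30, and *Hspa8* at 0.13 and -0.11, all small beside the fold of 1.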

How the results depend on the processing

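Of 432 recomputed member differences, 422 kept their sign and 0 of those past the fold reversed. The sign of *Dnajb1* in 2N cells (0.12 with library size alone, 0.01 with DESeq2 size factors), *Hspb1* in unsorted cells, and *Hsp90ab1* and *Hspe1* in the 4N and 2N vehicle comparison depended on the setting. Scaling by library size alone moved the median of all genes by 0.14 in 2N and in 4N cells and put *Hspe1* short of the fold, while scaling sorted and unsorted libraries apart put *Hspa8* past it in 2N cells, at -1.02. On the columns, edgeR called 3 members in 2N, 5 in 4N and 2 in unsorted cells, without *Hspe1* in 2N (-0.96), and DESeq2 called 1 in unsorted cells, *Hsp90aa1*. Without the replicate block, edgeR called 0 members between 4N and 2N cells at a fold beyond 1, although 8 had an unadjusted P below 0.05 with vehicle and 8 with CYC065, as compared with 5 and 8 by DESeq2, which also called 0. For the difference of the ratios edgeR and DESeq2 called 0, with 8 below 0.05 in each. After adjustment, the members below 0.05 with vehicle, with CYC065 and for the difference of the ratios were 5, 8 and 6 by edgeR. By DESeq2 they were 5, 8 and 7. These tests take columns labeled as parts of 1 library as replicates, so they do not measure the spread between cultures.

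Over all genes, dropping the filter on low counts gave 11845 genes past the fold in 2N, 11201 in 4N and 10540 in unsorted cells as compared with 3969, 3631 and 3617. For 4N against 2N it gave 5681 with vehicle and 7693 with CYC065, as compared with 361 and 514, and 10316 for the difference of ratios as compared with 1054. These low-count genes hold no member. At 100 summed counts the numbers were 120, 215 and 312, and with the whole interval beyond the fold 70, 162 and 97. For the difference of ratios, edgeR called 542, edgeR with the replicate block 531 and DESeq2 344. The replicate block changed no member call. Leaving out any replicate column kept each count of members and of all genes within 1.5 times. Spread between cultures was not measured.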
